A study of Mus musculus with 10 samples.

Results

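The 6 NMDA receptor subunit genes Grin1, Grin2a, Grin2b, Grin2c, Grin2d and Grin3a were examined in the adult mouse cortex. They were chosen by gene symbol, with earlier results of these data known. All 6 were found among the 13661 genes of the authors' deposited table. The series compared the cortex of 5 wild-type (WT) mice with that of 5 Chd8 knock-in (KI) mice, which serve as a mouse model of CHD8 gene duplication; CHD8 is a chromatin remodeller linked to autism. Every library came from poly(A) RNA of the cortex of 1 male at 8 weeks of age. The labels give no strain, no litter and no description of how or where the knock-in allele was inserted, and they name no other allele or treatment. Nothing in them says which animals were raised or processed together, so p-values measure only the spread between these libraries.

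NMDA receptors are glutamate-gated cation channels that let calcium into the postsynaptic neuron when glutamate, a co-agonist (glycine or D-serine) and depolarisation coincide. Each receptor holds obligatory GluN1 subunits, encoded by Grin1, which bind the co-agonist. These combine with glutamate-binding GluN2 subunits, encoded by Grin2a to Grin2d, or with GluN3 subunits, which bind glycine and lower calcium entry. In forebrain neurons GluN2B predominates early in life and GluN2A is added as synapses mature. GluN2C is known from cerebellar granule cells, thalamus and astrocytes, GluN2D from interneurons and diencephalon, and GluN3A from young synapses.

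Related subunits can share stretches of coding sequence, which bears on whether a read can be assigned to 1 gene, so the longest identical runs between the members' coding sequences were determined. The search used, for each gene, the longest annotated coding sequence of GENCODE release M21 on GRCm38, the assembly of mm10. Among the 6 pairs of GluN2 genes the longest run was between 18 and 34 bases, and among the 9 pairs that include Grin1 or Grin3a it was between 12 and 14 bases. One of the longer runs, shared by Grin2c and Grin2d, is printed as an example in coding orientation, with the identical bases in capitals and 12 coding bases of each gene on either side in lower case.
Grin2c, shared with Grin2d: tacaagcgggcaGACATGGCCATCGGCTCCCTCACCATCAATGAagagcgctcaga
Grin2d, shared with Grin2c: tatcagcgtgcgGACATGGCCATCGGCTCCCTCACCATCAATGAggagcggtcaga

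This 32-base run lies on the minus strand at chr11:115255377-115255408 in exon 9 of 15 of Grin2c and at chr7:45856844-45856875 in exon 6 of 12 of Grin2d. The sources used here give neither the read length nor the treatment of reads with several matches, and runs outside the coding sequence were not searched.

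In the RefSeq annotation of GRCm38, Grin1 (gene 14810) lies on chromosome 2 from 25291177 to 25319187, and Grin2a (14811) on chromosome 16 from 9567901 to 9996083. Grin2b (14812) lies on chromosome 6 from 135713221 to 136173615, Grin2c (14813) on chromosome 11 from 115249169 to 115267297, Grin2d (14814) on chromosome 7 from 45831883 to 45871194, and Grin3a (242443) on chromosome 4 from 49661611 to 49846023. All 6 encode proteins, and each value covers the whole gene rather than an isoform. Grin1 overlaps 7403 bases of Grin1os, a long non-coding RNA gene on the opposite strand, and 17 bases of Lrrc26. These overlaps are of whole gene spans, introns included. Since strand use in counting was not stated, it is unknown whether reads of Grin1 and Grin1os were told apart where the genes overlap. In the authors' deposited table Grin1os had a mean normalised count of 197 and a log2 fold change of 0.23 (standard error 0.46), an estimate with a far wider error than that of Grin1. No gene that overlaps another member was among the genes tested.

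Grin1 had the highest level of the 6 subunit genes, also per unit of transcript length. The authors' deposited table gives for each gene the mean over all 10 libraries of the count divided by a library size factor, here called the mean normalised count, and per-library values were not analysed here. The level in each genotype is therefore known only through this mean and the fold change, and no SD over libraries can be given for a level. Grin1 had a mean normalised count of 7926 in the authors' deposited table, rank 351 of the 13661 genes. For the GluN2 genes it was 1629 for Grin2b, 1148 for Grin2c, 523 for Grin2a and 336 for Grin2d, and for Grin3a 457, all in the authors' deposited table. Of the 6, Grin1, Grin2b and Grin2c lay above the median of all genes, 549, and Grin2a, Grin2d and Grin3a below it. Grin3b, which encodes the other GluN3 subunit, was not among the genes tested.

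Because a long transcript yields more fragments, levels of different genes were compared per kilobase of the longest annotated transcript. On that scale Grin1 stood at 1854 mean normalised counts per kb, above 95.9% of the genes with an annotated length. Grin2c was second at 234 per kb, while Grin2b (67.7), Grin2d (61.9) and Grin3a (61.0) lay close together and Grin2a was lowest at 35.7 per kb. The GluN2 genes together reached 399.8 per kb, so the Grin1 level was 4.64 times their sum. That ratio was 3.13 per kb of coding length and 2.19 per kb of the union of exons. By longest transcript Grin2c made up 58.6% of the GluN2 sum, Grin2b 16.9%, Grin2d 15.5% and Grin2a 8.94%. By coding length the leading gene was Grin2b with 41.7%, followed by Grin2c with 35.1%, Grin2a with 13.5% and Grin2d with 9.64%.

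The order among the GluN2 genes depended on the length used, because the longest transcript of Grin2b measures 24060 bases and that of Grin2a 14634, against 4895 for Grin2c and 5431 for Grin2d. Coding lengths differ far less, from 2877 bases for Grin1 to 4446 for Grin2b. Per kb of coding length Grin2b led the GluN2 genes with 366, followed by Grin2c with 309, Grin2a with 119 and Grin2d with 84.7, and Grin3a stood at 134. The Grin2b to Grin2a ratio was 1.89 by longest transcript and 3.08 by coding length. Grin2c exceeded Grin2a on both scales, by 6.56 times and 2.59 times. Which of these exons and untranslated regions the authors counted is unknown here, so the order of Grin2b and Grin2c is not settled by these values, and no neighbours in the order could be tested against their spread.

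**Figure D1:**
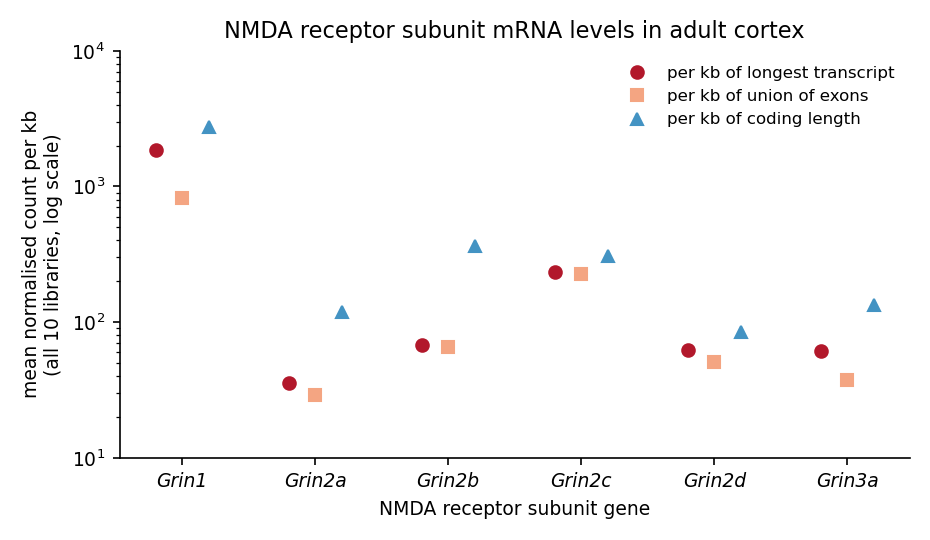
Mean normalised count per kb over all 10 libraries (log axis) for each NMDA receptor subunit gene, under 3 definitions of gene length: longest annotated transcript (circles), union of all exons (squares) and coding length (triangles). Grin1 is highest under each definition, and the place of Grin2b relative to Grin2c changes from below (67.7 against 234 per kb of longest transcript) to above (366 against 309 per kb of coding length).

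The other ionotropic glutamate receptor genes put these levels in context, again per kb of longest transcript. The AMPA receptor genes, whose channels carry most fast excitatory current, had 1708 for Gria1, 1490 for Gria2, 1060 for Gria3 and 433 for Gria4. The 4 GluN2 genes stood below all 4 of them, also per kb of coding length and of the union of exons. Grin1 stood above all 4 by longest transcript, but per kb of coding length it had 2755 against 3480 for Gria1 and 5834 for Gria2, and per kb of the union of exons 817 against 1567 and 994. Among kainate receptor genes Grik5 reached 1242, Grik3 248, Grik2 124, Grik4 86.9 and Grik1 82.8, and the delta receptor gene Grid1 had 235 per kb.

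For Chd8, the altered gene, the authors' deposited table gave 1.40 times the WT level (95% interval 1.22 to 1.61). No direction is named in the header, so fold changes were taken as KI over WT, the reading under which Chd8 is the higher in KI. All directions given here rest on it.

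No NMDA receptor subunit passed the threshold of an adjusted p under 0.05 in the authors' deposited table (DESeq2 Wald test), and 0 of the 6 had an unadjusted p under 0.05. Over all 13660 genes with a p-value, 0.0732% passed the adjusted threshold and 3.22% had an unadjusted p under 0.05, so a count of 0 among 6 genes is near that background. The adjusted p was 0.99986 for every member. Of the 6 log2 fold changes 3 were positive and 3 negative, with a median of 0.020, beside a median of 0.0025 over all genes tested. With the trend of the log2 fold change on transcript length removed, 2 were positive and 4 negative, and the median turned to -0.035.

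The obligatory subunit gene Grin1 had a log2 fold change of 0.058 in the authors' deposited table (standard error 0.075, unadjusted p = 0.441, DESeq2 Wald test). This corresponds to 1.04 times the WT level with a 95% interval of 0.940 to 1.15.

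Grin2a and Grin2b, known as the main GluN2 genes of forebrain neurons, had point estimates near 0 but wide intervals. In these libraries the Grin2a level lay below those of Grin2b and Grin2c under each length used. For Grin2a the authors' deposited table gave -0.0030 (standard error 0.14, unadjusted p = 0.983), a fold of 0.998 with an interval of 0.827 to 1.20. For Grin2b it gave 0.043 (standard error 0.24, unadjusted p = 0.856), a fold of 1.03 with an interval of 0.748 to 1.42 in the authors' deposited table. The interval of Grin2b is the widest of the 6, and its estimate turned to -0.047 with the length trend removed.

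Grin2c and Grin2d, whose known sites of expression lie largely outside cortical pyramidal cells, had almost the same small negative estimates. Grin2c stood at -0.021 in the authors' deposited table (standard error 0.080, fold 0.985, interval 0.884 to 1.10). Grin2d stood at -0.023 there (standard error 0.086, fold 0.984, interval 0.876 to 1.11), both from the authors' deposited table. Grin3a, encoding a glycine-binding subunit of juvenile synapses, had the estimate farthest from 0, at 0.10 in the authors' deposited table (standard error 0.097, unadjusted p = 0.302, fold 1.07, interval 0.939 to 1.22).

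The intervals show which sizes of change these data allow. The 95% normal interval lay within ±0.3 on the log2 scale for 5 of the 6 members, all but Grin2b, and for 66.3% of all genes. Those of Grin2a (-0.274 to 0.268) and Grin3a (-0.090 to 0.291) came close to that bound. Intervals from a t distribution, which are wider, were not computed, so the count holds for the normal interval only. The smallest Wald score among the called genes was 4.15 in size. An estimate of that many of a gene's own standard errors would be a rise to 1.24 times for Grin1, 1.26 times for Grin2c, 1.28 times for Grin2d and 1.32 times for Grin3a. For Grin2a the same estimate would be 1.49 times and for Grin2b 1.97 times. These are sizes of an estimate, not limits on the change itself.

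**Figure D2:**
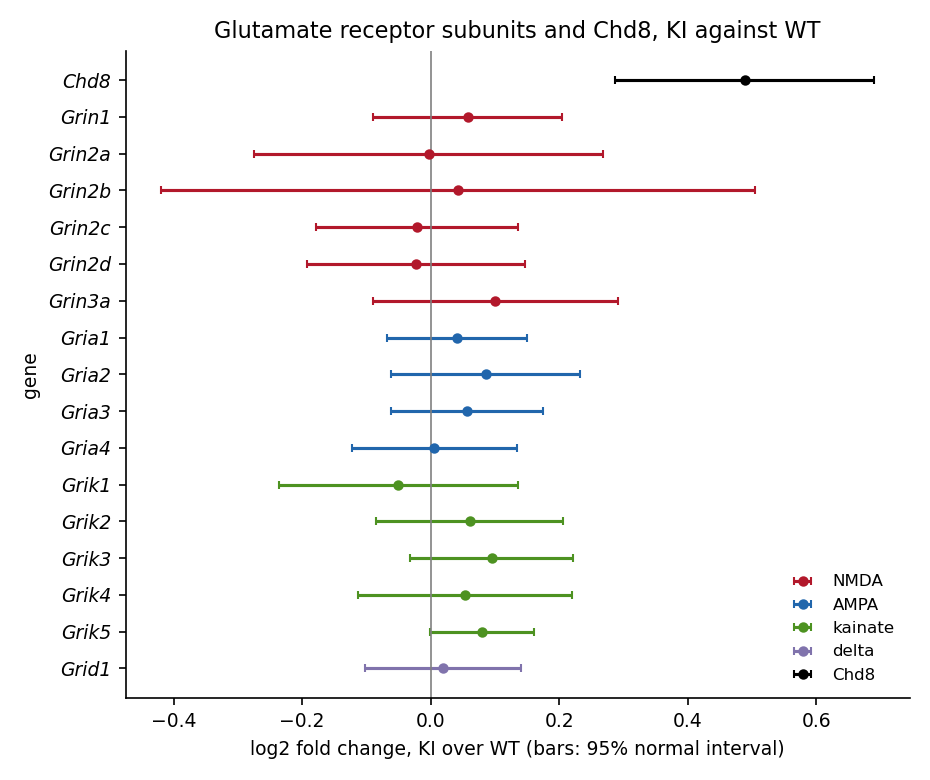
Log2 fold change of KI over WT from the authors' deposited table for Chd8 and for the NMDA, AMPA and kainate receptor subunit genes and the delta receptor gene Grid1; points are the deposited estimates and bars 95% normal intervals made from the deposited standard errors. The interval of Chd8 lies above 0, those of all 16 receptor genes include 0, and that of Grin2b, from -0.42 to 0.50, is the widest shown.

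Grin2b and Grin2a were measured less precisely than genes of like abundance. The 500 genes nearest to Grin2b in mean normalised count had a median standard error of 0.061, and the 0.24 of Grin2b in the authors' deposited table was 3.84 times that. Only 8 of those 500 genes had a larger one. They were the mitochondrial genes ATP6 and COX2, the activity-regulated gene Nr4a1, the clock gene Per1, the histone methyltransferase gene Kmt2d, and Akap8l, Eml5 and Pxdn, named here after their values were seen. For Grin2a the ratio was 1.66, with 21 of its 500 neighbours above it, and for Grin1 it was 1.51, with 68 above it. Grin2c (1.20) and Grin3a (1.11) were close to their neighbours, and Grin2d (0.882) was more precise than the median of its own. A standard error above the neighbour median was also found for 7 of the 10 AMPA, kainate and delta receptor genes. The highest ratio among them was 1.56, for Gria2, above that of Grin1 and below those of Grin2a and Grin2b.

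With 5 libraries in each genotype and counting error included, these standard errors correspond roughly to a coefficient of variation between libraries of 1 genotype of 25.8% for Grin2b and 15.2% for Grin2a. The same figure was 8.19% for Grin1, 8.79% for Grin2c, 9.45% for Grin2d and 10.7% for Grin3a. These are approximations from the deposited standard errors, not SDs of library values. The variance beyond counting error was then set against the median of genes near in mean count, for the 10254 genes whose mean normalised count reached 200. The genes fell into separate groups, with 0 genes at ratios between 7 and 8 and 210 genes (2.05%) above. Grin2b was in the upper group, at 16.8 times the median, whereas Grin2a was at 3.31, Grin1 at 2.37, Grin2c at 1.51, Grin3a at 1.32 and Grin2d at 0.698. None of the 10 other ionotropic genes (AMPA, kainate and Grid1) was in the upper group, and of the 79 pathway genes described below that reached this abundance, 1 was, the activity-regulated gene Arc. DESeq2 by default pulls each gene's dispersion towards a trend and leaves those far above it as they are, and whether the authors kept that default was not stated. Which libraries differed for Grin2b was not analysed here.

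**Figure D3:**
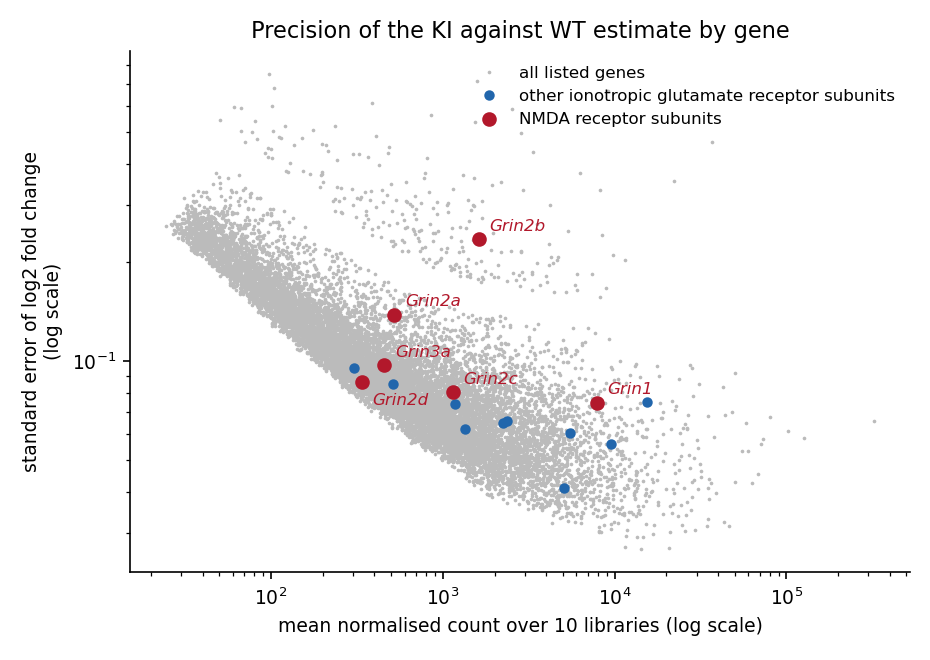
Standard error of the log2 fold change (log axis) against mean normalised count over 10 libraries (log axis) for all 13661 genes of the authors' deposited table (grey), with the other ionotropic receptor genes in blue and the NMDA receptor subunits in red. Grin2b, at 1629 counts and a standard error of 0.24, lies in a sparse upper band separated by a gap from the main cloud, and the other 5 members lie in the main cloud.

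Among the AMPA and kainate receptor genes and Grid1, 0 of 10 passed the threshold in the authors' deposited table (DESeq2 Wald test). An unadjusted p under 0.05 was likewise found for 0 of the 10. Over all genes tested these shares were 0.0732% and 3.22%, so counts of 0 among 10 genes are near that background. Of these 10 estimates 9 were positive, beside 51.6% of those of all genes tested, and their signs were not recomputed with the length trend removed. The median log2 fold change of the 10 was 0.056, beside 0.020 for the 6 NMDA members and 0.0025 for all genes. The kainate subunit gene Grik5 came closest, at 0.080 in the authors' deposited table (standard error 0.041, unadjusted p = 0.0516), followed by Grik3 at 0.095 (0.065). AMPA genes ranged from 0.0061 for Gria4 to 0.086 for Gria2 in the authors' deposited table. For Grid1 it gave 0.020 (standard error 0.062). Whether NMDA genes differed from these families was not tested, since the estimates come from the same libraries and their covariance is not known.

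Genes that supply, anchor or modify the receptor likewise gave no call. The 4 lists, of co-agonist supply, scaffolds and trafficking, kinases and phosphatases, and downstream calcium signalling, hold 84 genes, of which 82 were tested and 0 passed the threshold in the authors' deposited table (DESeq2 Wald test). Of all 13660 genes with a p-value 0.0732% passed it, so a count of 0 among 82 genes is near that background. The absence of calls therefore does not set these genes apart from the rest. At an unadjusted p under 0.05 there were 3 of 82, beside 3.22% of all genes in either direction. All 3 were higher, beside the 1.34% of all genes that were higher at that p. Over all genes tested 51.6% of estimates were positive, the background for the signs in the 4 lists. Those signs were not recomputed with the length trend removed.

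Co-agonist supply covered 14 tested genes of 16, with 9 positive and 5 negative estimates and a median of 0.050. Slc6a9, encoding the glycine transporter GlyT1, which clears glycine around the receptor, stood at -0.16 in the authors' deposited table (standard error 0.081, unadjusted p = 0.0539). Srr, encoding serine racemase, the enzyme that makes D-serine, stood at 0.080 (0.051) there, again in the authors' deposited table. Gldc and Gcsh, parts of the glycine cleavage system, stood at 0.10 (0.066) and -0.12 (0.092) in the authors' deposited table.

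Scaffold and trafficking genes had 17 positive and 5 negative estimates among 22, with a median of 0.038. Those with the smallest p in the authors' deposited table were Dlg2, encoding the scaffold PSD-93, at 0.10 (standard error 0.043, unadjusted p = 0.0197), and Cask, encoding a membrane-associated scaffold kinase, at 0.11 (0.056, unadjusted p = 0.0434). Next in the authors' deposited table came Dlg3, encoding SAP102, at 0.071 (0.037) and Dlgap1, encoding a PSD-95-binding protein, at 0.065 (0.040). Dlg4, encoding PSD-95 itself, was at 0.040 (0.052), and Kif17, the kinesin that carries GluN2B, at 0.027 (0.090), in the authors' deposited table.

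Kinase and phosphatase genes had 21 positive and 7 negative estimates among 28, with a median of 0.015. Camk2a, encoding the kinase subunit that docks on GluN2B, had the smallest p, at 0.12 in the authors' deposited table (standard error 0.042, unadjusted p = 0.0062). Ptpn5, encoding the phosphatase STEP, which acts on GluN2B, stood at -0.081 (0.054) there, beside Camk2d at 0.098 (0.065) and Prkcb at 0.075 (0.060) in the authors' deposited table. The Src-family kinase genes Src and Fyn, whose products phosphorylate GluN2 tails, were at 0.0043 (0.044) and -0.0090 (0.040) in the authors' deposited table.

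Downstream calcium signalling genes had 14 positive and 4 negative estimates among 18, with a median of 0.010. In the authors' deposited table the smallest p-values belonged to Camkk2 at 0.079 (standard error 0.046), Crtc1 at 0.062 (0.044), Rasgrf2 at 0.075 (0.056) and Camk4 at 0.075 (0.078), and none had an unadjusted p under 0.05. Grina, named as a glutamate receptor-associated protein although it is not a channel subunit, stood at -0.056 (0.036) in the authors' deposited table.

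**Figure D4:**
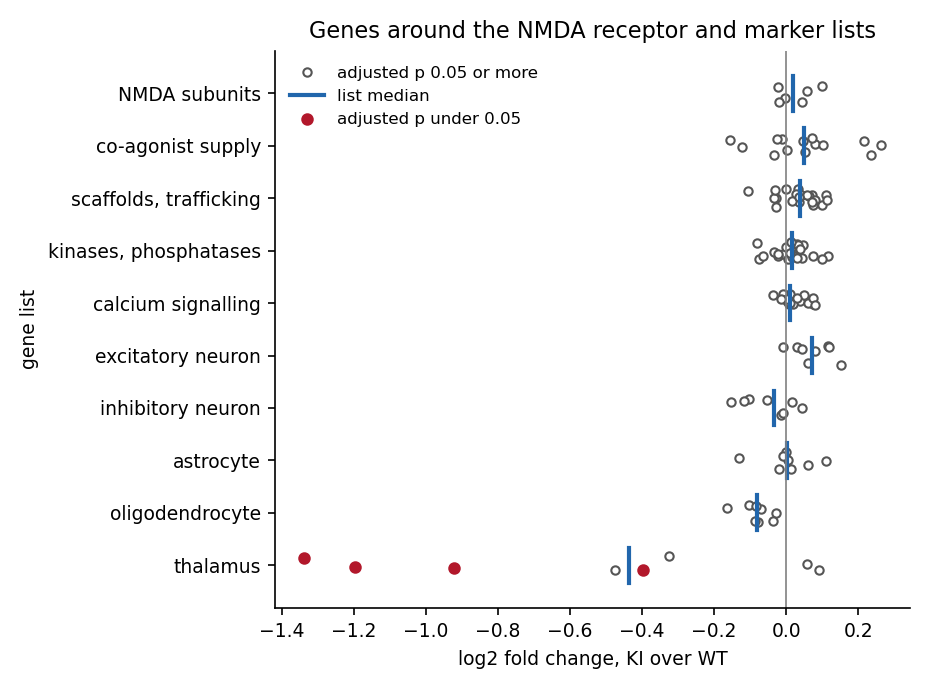
Log2 fold changes of KI over WT from the authors' deposited table for the NMDA subunits, the 4 pathway lists and 5 marker lists; each point is a gene, filled red where the adjusted p is under 0.05, and blue bars are list medians. NMDA subunits and pathway genes lie near 0 with no filled point, while the thalamus markers spread to -1.34 with 4 filled points.

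Markers of the cells that express these subunits were checked in the same table. In bulk tissue, fewer cells of a type and less RNA per cell cannot be told apart. Excitatory neuron markers had 7 positive estimates among 8 (median 0.071), with Slc17a7, the cortical vesicular glutamate transporter gene, at 0.062 (standard error 0.039) and Camk2a and Neurod2 leading at 0.12 (0.042) and 0.15 (0.084) in the authors' deposited table. Inhibitory neuron markers, relevant to Grin2d, had 2 positive among 8 (median -0.035), with Pvalb at -0.15 (0.079), Slc32a1 at -0.12 (0.074) and the most abundant, Gad1, at -0.016 (0.051) in the authors' deposited table. Astrocyte markers, relevant to Grin2c, had 5 positive among 8 (median 0.0032), with Aldh1l1 at -0.13 (0.062) and Slc1a2, the most abundant, at 0.11 (0.065) in the authors' deposited table. None of these 24 markers passed the threshold.

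Of 8 thalamus markers, 4 passed the threshold, all falling in KI, beside 0.0659% of all genes called lower. The list had 6 negative and 2 positive estimates, the positive ones being Lef1 at 0.090 (standard error 0.15) and Rora at 0.057 (0.15) in the authors' deposited table, named after their values were seen. Since falls of these genes in these libraries were known when the list was written, neither the count nor the list median is independent evidence. The called genes in the authors' deposited table were Tnnt1 at -1.34 (standard error 0.26, adjusted p = 0.0013), Prkcd at -1.20 (0.29, adjusted p = 0.0437), Tcf7l2 at -0.92 (0.19, adjusted p = 0.0022) and Ramp3 at -0.40 (0.091, adjusted p = 0.0228), by the DESeq2 Wald test. For Slc17a6, the most abundant of the list, the authors' deposited table gave -0.32 (0.11). With a t distribution with 8 degrees of freedom in place of the normal, 0 of all genes passed, these 4 and Chd8 included, and 212 had an unadjusted p under 0.05. The list median was -0.44. Grin2c and Grin2d, the members also known from thalamus or diencephalon, stood at -0.021 and -0.023, and which cells their RNA came from is unknown here. Of 8 cerebellar granule cell markers, 4 were tested, and the defining marker Gabra6 was not among them. The tested ones had 1 positive and 3 negative estimates (median -0.21). Zic2 and Zic1 stood at -0.33 (standard error 0.14) and -0.55 (0.26) in the authors' deposited table, neither past the threshold. Oligodendrocyte markers had 0 positive among 8 (median -0.081), with Cnp at -0.10 (0.038), Mog at -0.16 (0.067) and Mbp, the most abundant, at -0.070 (0.053) in the authors' deposited table and no call. The part of tissue composition in the estimates of the subunits was not tested.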

How the data were processed

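RNA-seq of the cortex was deposited for 10 libraries, 5 WT and 5 KI, grouped by sample title. Per the submitters' processing notes the tools were Trimmomatic 0.39, HISAT2 2.1.0, featureCounts 2.0.0 and DESeq2 1.26.0, with the build mm10; the sources used here give no settings, annotation, strand use or model formula. The deposited file is the authors' table of 1 comparison. Per the file headers it holds the mean normalised count (a signal scaled by library size factors), the log2 fold change with its standard error, the Wald score, and p-values with their adjusted form. Library depth is unknown, since library totals were not analysed here.

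The deposited Wald score equalled the log2 fold change over its standard error, and the deposited adjusted p matched Benjamini-Hochberg values recomputed from the 13660 deposited p-values. RefSeq (GRCm38.p6) gave symbols for 13497 genes, and GENCODE M21 gave lengths for 13098. Intervals are 95% normal intervals. Computations used Python 3.11.15, pandas 2.3.3, scipy 1.17.1 and statsmodels 0.14.6, and the adjustment and length correction were tested on simulated data.

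The members and gene lists were chosen with earlier results of these data known. Named genes were all members, Chd8, Grin3b and Grina, the other ionotropic receptor genes, called members and the 4 smallest p-values of each pathway list, and for marker lists the 2 smallest p-values and the most abundant gene; Dlg4, Kif17, Slc17a7, Src, Fyn, Grin1os, Lrrc26 and the neighbours of Grin2b were added after their values were seen. Further marker lists (oligodendrocyte precursors, microglia, endothelium, striatum, hippocampus, choroid plexus, meninges, immature neurons) are given in the closing section. Some listed genes and shared sequences are not reported here and were left out of the counts. Alternatives were stricter count minimums, other thresholds, centring, removal of a length trend, a t distribution and other gene lengths.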

Additional observations from a re-analysis of the deposited data

How the results depend on the processing

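No subunit, and none of the 82 pathway genes tested, passed the threshold under any alternative run. The alternatives were mean normalised counts of at least 50 or 200, adjusted p thresholds of 0.1 or 0.01, and centring on the median of all genes. Removal of the trend of the log2 fold change on transcript length, and a t distribution with 8 degrees of freedom, were the others. Of these, the threshold of 0.01 and the t distribution can only remove calls, so they could not have added a subunit. The count called was 10 of 13660 genes, and 6 of 13660 at a threshold of 0.01. It was 7 of the 10253 genes tested with counts of at least 200, and 9 of the 13098 tested with the length trend removed. The called genes Tnnt1 and Tcf7l2, with mean normalised counts of 65.7 and 148, lay below that minimum and were not tested there. With the t distribution the count called was 0, so Chd8 and Igf2 lost their calls too. It left 212 genes at an unadjusted p under 0.05, against 440 in the authors' deposited table. Removing the length trend turned 1 direction, that of Grin2b, from 0.043 to -0.047, and moved the members' median from 0.020 to -0.035. The levels moved with the length used. Per kb of coding length they were 2755 for Grin1, 119 for Grin2a, 366 for Grin2b, 309 for Grin2c, 84.7 for Grin2d and 134 for Grin3a. Per kb of the union of exons they were 817, 29.2, 65.6, 228, 50.5 and 37.2 in the same gene order, and without length scaling 7926, 523, 1629, 1148, 336 and 457. No paired analysis was possible because the deposited table holds no per-library values; leaving out single libraries, and edgeR or DESeq2 fits to counts, were not run for the same reason.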

Other observations

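The remaining marker lists were read in the authors' deposited table in the same way. They too were chosen with earlier results of these data known, so neither their counts nor their medians are independent evidence. Choroid plexus markers were all negative (6 of 6, median log2 fold change -0.26), with Kl at -0.40 (standard error 0.11) and Enpp2 at -0.18 (0.059), none past the threshold; Ttr, the most abundant, stood at -0.12 (0.096) in the authors' deposited table. Meningeal markers were all negative too (8 of 8, median -0.25), and 1 passed, beside 0.0659% of all genes called lower. That gene was Igf2, at -0.29 (0.059, adjusted p = 0.0022, DESeq2 Wald test), with Fmod at -0.44 (0.14) in the authors' deposited table. Striatal markers were negative in 8 of 8 (median -0.074), with Drd1 at -0.14 (0.10) and Ppp1r1b, the most abundant, at -0.091 (0.077) in the authors' deposited table. Oligodendrocyte precursor (median 0.029), microglial (-0.025), endothelial (0.024), hippocampal (0.036) and immature neuron (0.051) lists had no member past the threshold. Among precursor markers the authors' deposited table gave 0.14 (0.052) for Pdgfra, -0.098 (0.10) for Olig2 and -0.067 (0.085) for Olig1. Microglial values there were -0.17 (0.11) for C1qb, 0.086 (0.083) for P2ry12 and -0.0062 (0.060) for Csf1r, the most abundant, and endothelial ones 0.14 (0.10) for Slco1a4 and -0.095 (0.10) for Tek. In the hippocampal list of the authors' deposited table Dsp was at 0.60 (0.17), Spink8 at 0.35 (0.19) and Calb1 at -0.024 (0.067). For immature neurons it gave 0.087 (0.064) for Sox4, 0.11 (0.10) for Sox11 and -0.049 (0.055) for Tubb3.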
